A study of Rattus norvegicus with 36 samples.

Results

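Cytochrome P450 enzymes of families 2 and 3 were described in the liver of male Sprague Dawley rats given decabromodiphenylethane (DBDPE), a brominated flame retardant. Members were taken from the platform annotation as every probe set (a group of short probes that report on 1 transcript) whose gene symbols all begin with Cyp2 and a letter, or with Cyp3a. This gave 34 of 31042 probe sets, which name 33 of 14863 distinct genes. The subfamilies are Cyp2a with 4 probe sets, Cyp2b with 4, Cyp2c with 7, Cyp2d with 5, Cyp2e with 1, Cyp2j with 4, Cyp3a with 4, and 5 others, Cyp2f4, Cyp2g1, Cyp2s1, Cyp2t1 and Cyp2u1. By annotation, near-identical genes share 3 of the probe sets, written here as Cyp2a2/Cyp2a1, Cyp2d5/Cyp2d1 and Cyp2b2/Cyp2b1, and their signals cannot be split between the genes they name. Whether other probe sets, as those of the related Cyp2c genes, also take up signal of genes they do not name was not tested. Cyp2d4 and Cyp2j3 each have a second probe set.

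Rats were 7 weeks old when dosing began. On each of 5 days in a row they were gavaged, in 5 ml/kg, with corn oil alone (vehicle) or with DBDPE in corn oil, at lower doses of 0.1, 0.97 and 9.71 mg/kg or top doses of 97.1 and 970 mg/kg, and the left liver lobe was taken 1 day after the last dose. Each of the 6 groups held 6 samples, and RNA was hybridised to Affymetrix 3′ arrays, 1 array per sample. All groups shared the strain, the sex, the diet and the corn oil. Each sample was taken to be a rat of its own, which the labels do not state, and if it was not, p-values measure only the spread between samples. In whole liver, fewer hepatocytes and less RNA per hepatocyte cannot be told apart.

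P450 enzymes are haem proteins of the endoplasmic reticulum that oxidise drugs, steroids and fatty acids, with electrons passed on by the reductase Por. In hepatocytes, the constitutive androstane receptor (CAR, Nr1i3) and the pregnane X receptor (PXR, Nr1i2) bind regulatory DNA near Cyp2b and Cyp3a genes and raise their transcription when foreign compounds are present. The pulsed growth hormone of male rats and the steady secretion of females set the levels of the sex-dependent forms, among them the male form Cyp2c11 and the female form Cyp2c12. The Cyp1a enzymes, by contrast, answer to the aryl hydrocarbon receptor (AhR).

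Promoters of the 4 genes that are classic responders to these receptors are printed first, because the main comparison asks whether such genes moved. Each run is the 250 bases upstream of the RefSeq start in GRCr8, read 5′ to 3′ on the gene's strand. Cyp3a23-3a1 is at chr12:14398804-14399053 on the minus strand and Cyp3a2 at chr12:14343858-14344107 on the minus strand. Cyp2b1 is at chr1:90645869-90646118 and Cyp2b2 at chr1:90722031-90722280, both on the plus strand. Capitals mark a direct repeat of AGTTCA with 3 bases between its arms in the Cyp3a genes, where it lies as its reverse complement, and GCGTG, the core of the AhR element, in the Cyp2b genes. GCGTG is short and was found in 25.9% of all windows of this length. No CAR or PXR element is marked in the Cyp2b runs, and bases farther upstream, where one could lie, were not searched.
Cyp3a23-3a1: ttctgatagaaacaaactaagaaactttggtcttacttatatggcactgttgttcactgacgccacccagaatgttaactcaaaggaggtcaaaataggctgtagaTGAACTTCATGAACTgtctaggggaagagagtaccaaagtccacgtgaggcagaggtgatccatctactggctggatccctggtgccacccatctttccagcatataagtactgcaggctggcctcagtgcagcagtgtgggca
Cyp3a2: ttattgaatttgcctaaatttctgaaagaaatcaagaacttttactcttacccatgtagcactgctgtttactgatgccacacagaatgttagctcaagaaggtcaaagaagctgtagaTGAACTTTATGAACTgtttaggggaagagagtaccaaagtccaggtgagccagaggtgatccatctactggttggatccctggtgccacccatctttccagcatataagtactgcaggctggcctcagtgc
Cyp2b1: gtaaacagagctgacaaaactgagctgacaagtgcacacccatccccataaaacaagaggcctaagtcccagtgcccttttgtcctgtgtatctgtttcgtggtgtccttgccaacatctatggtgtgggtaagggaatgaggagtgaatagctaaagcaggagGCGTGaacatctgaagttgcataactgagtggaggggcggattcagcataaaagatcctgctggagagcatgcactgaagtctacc
Cyp2b2: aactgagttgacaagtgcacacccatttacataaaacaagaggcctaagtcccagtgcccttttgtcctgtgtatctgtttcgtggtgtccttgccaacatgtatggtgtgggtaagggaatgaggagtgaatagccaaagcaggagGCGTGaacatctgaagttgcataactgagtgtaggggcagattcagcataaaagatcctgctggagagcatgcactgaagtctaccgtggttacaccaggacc

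This repeat, the form of element on which PXR binds in rat Cyp3a genes, lay at bases -144 to -130 before the start of Cyp3a23-3a1 and at -131 to -117 before Cyp3a2. Searched on both strands, it was present in 2 of the 31 member promoters with a RefSeq entry and in 2 of 33360 promoter windows of the same length (0.006%). Its single arm AGTTCA, which those repeats contain, was in 9 of 31 member promoters (29.0%) and in 12.2% of all windows. AGGTCA was in 10 of 31 (32.3%) against 14.1% of all windows. GCGTG was in 4 of 31 (12.9%) against 25.9% of all, and the longer form TNGCGTG, which contains it, in 0 of 31 against 4.11%. TTATGTAA, a form that the clock-controlled factor Dbp binds, was in 2 of 31 against 0.83%, and TTCNNNGAA, the form that Stat5b binds, in 2 of 31 against 7.68%. The Cyp2b1 and Cyp2b2 runs matched at 225 of 233 aligned bases (96.6%) and the Cyp3a pair at 165 of 237 (69.6%), each at its best offset with no gaps. AGGTCA lay at -164 to -159 before Cyp3a23-3a1 and at -150 to -145 before Cyp3a2, so no single offset lines up both it and the repeat. Bases beyond such a gap are scored out of register, so the percentages of the pairs are not to be compared. These matches describe letters in a window and not binding.

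Hepatic P450 signal lay above the array median for most members. On all 36 arrays, 29 of the 34 probe sets lay above the array's own median, and the other 5, for Cyp2a3, Cyp2b12, Cyp2b21, Cyp2g1 and Cyp2s1, lay below it on all 36. Of all 31042 probe sets, 13967 lay above the median on every array and 13879 below it. Values are log2 signals, on which a difference of 1 is a 2-fold change, and array medians lay between 5.07 and 5.12. Because probes differ in brightness, a signal is compared between samples and not between probe sets. Per array, the mean of the hepatocyte markers (6 of 6 measured) lay between 12.86 and 13.02 in the vehicle group and between 12.71 and 13.15 at the top dose. That of Kupffer cells, the resident macrophages (4 of 5 measured), lay between 7.86 and 8.98 in the former and 8.29 and 8.90 in the latter, and that of interferon genes (11 of 11) between 5.28 and 6.59 and between 5.79 and 6.31. The part of these markers in the dose comparisons was not tested. Within the hepatocyte markers the SD at the top dose was 0.84 for Tat and 0.01 for Alb (n = 6). The 3′ to 5′ beta-actin difference, a measure of RNA quality, ranged from 1.02 to 1.33 over the arrays. It averaged 1.12 ± 0.07 in vehicle and 1.19 ± 0.08 at the top dose (SD, n = 6 each). At the other doses its mean lay between 1.11 and 1.15, and its part in the dose comparisons was not tested.

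The first comparison asked which members changed at each dose. No member rose or fell at any dose, over the doses together, or along the dose steps (0 of 34 in each, limma, Benjamini-Hochberg adjusted over all 31042 probe sets, threshold 0.05). In the whole table, 2 probe sets were called at 970 mg/kg and 2 at 97.1 mg/kg, 0.00644% each, and 0 at each lower dose. Both were AhR genes of another family. Cyp1a1 rose by 6.23 on the log2 scale at 970 mg/kg (limma adjusted p = 9.19e-18) and by 3.49 at 97.1 mg/kg. Cyp1a2 rose by 0.86 (limma adjusted p = 9.91e-12) and by 0.51.

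At an unadjusted p under 0.05, 2 of 34 members passed at 970 mg/kg (5.88%, against 4.87% of all probe sets) and 2 at 97.1 mg/kg (5.88% against 5.42%). The count was 1 at 9.71 mg/kg (2.94% against 5.06%), 0 at 0.97 mg/kg (against 4.92%) and 0 at 0.1 mg/kg (against 4.46%). Along the dose steps it was 4 (11.8% against 5.7%) and over all doses 1 (2.94% against 4.18%). For no member did all 6 samples at 970 or 97.1 mg/kg lie outside the 6 vehicle samples, against 0.116% of all probe sets above and 0.0838% below at 970 mg/kg, and 0.0548% above and 0.0966% below at 97.1 mg/kg. At the top dose 20 of 34 members had a value above 0, with a median difference of 0.02 (all probe sets -0.004).

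The intervals say which changes of signal remained possible. They include those of the 5 members below the median of every array. They also include very bright members, such as Cyp3a2 with a mean of 13.78, where the highest value on any array was 14.68. How well signal follows RNA amount at either end was not tested. At 970 mg/kg the 95% interval of the change stayed within 1.5-fold either way for 30 of 34 members (88.2%, against 97.8% of all probe sets), and within 2-fold for all 34 (against 99.5%). The 4 outside 1.5-fold were Cyp2b2/Cyp2b1, Cyp2c12, Cyp3a9 and the second probe set of Cyp2d4. At 97.1 mg/kg the interval stayed within 1.5-fold for 31 members (91.2%, against 97.7% of all probe sets). It stayed within 2-fold for 33 members (97.1%, against 99.5%), all but Cyp3a9.

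**Figure D1:**
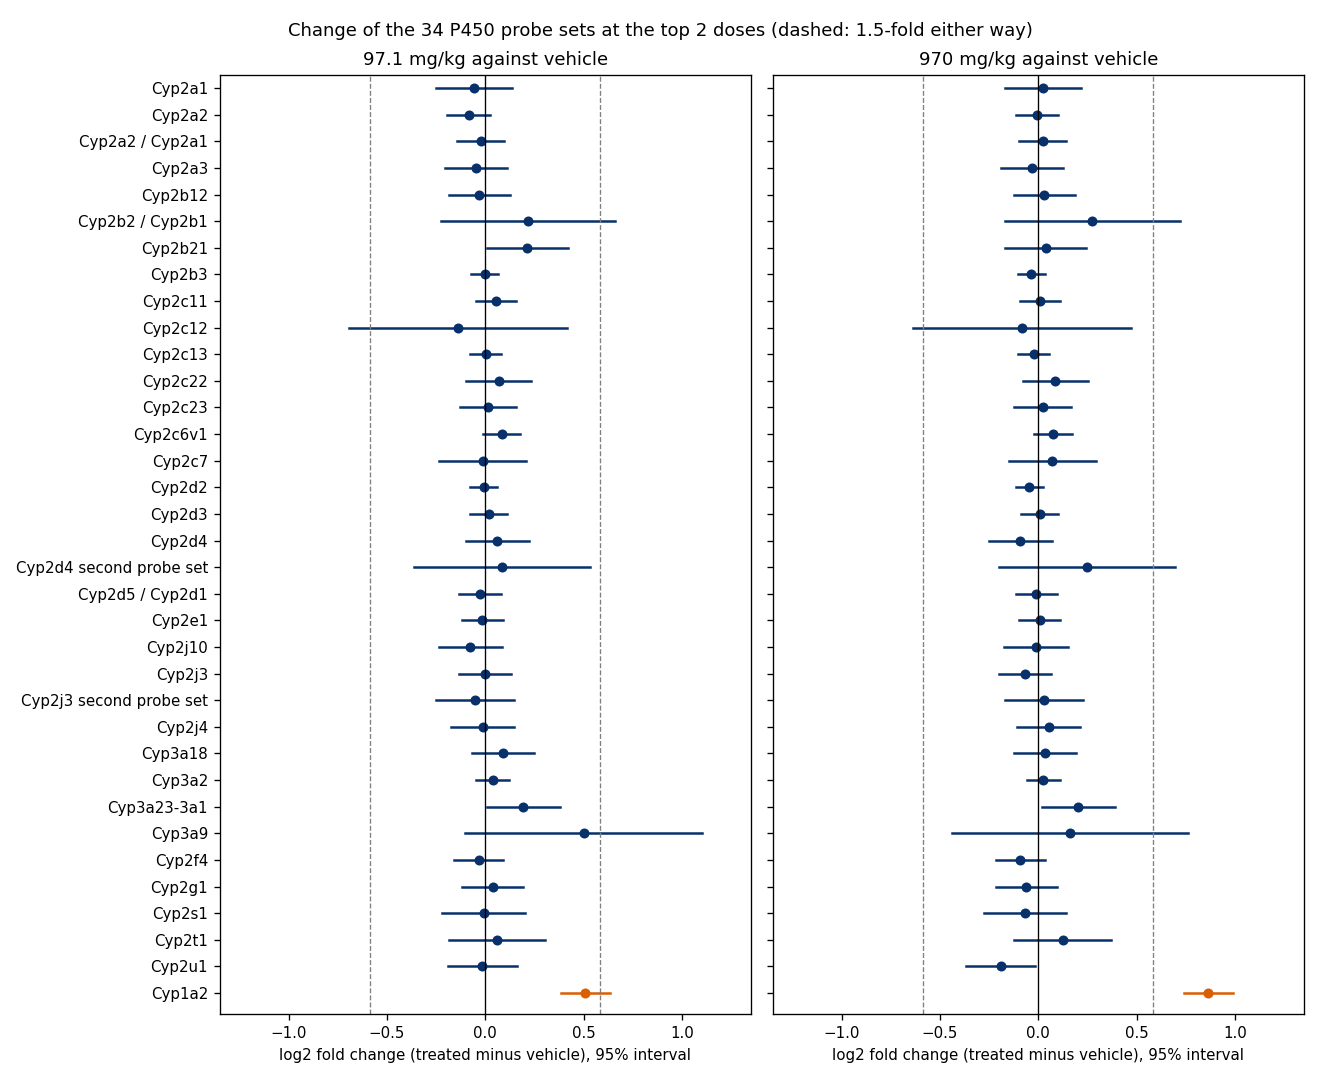
Log2 fold change of each of the 34 P450 probe sets (treated minus vehicle, points) with its 95% interval (lines) at 97.1 mg/kg (left) and 970 mg/kg (right), n = 6 per group, with Cyp1a2 in orange for scale and dashed lines at 1.5-fold. The member values at 970 mg/kg run from -0.19 for Cyp2u1 to 0.27 for Cyp2b2/Cyp2b1, while Cyp1a2 lies at 0.86.

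Among the members that CAR or PXR can induce, 9 probe sets were measured, and 0 rose or fell. All 9 had a value above 0 at 970 mg/kg (median 0.07), where 48.1% of all probe sets did. At 97.1 mg/kg 6 did (median 0.08), and 7 did at 9.71 mg/kg (median 0.07), at 0.97 mg/kg (median 0.03) and at 0.1 mg/kg (median 0.03). These counts share the vehicle samples, and some of the 9 vary together between rats, as described below, so they are not independent. Cyp2b2/Cyp2b1, the phenobarbital-inducible enzymes that are the usual readout of CAR, had signals from 10.13 to 11.04 with a median of 10.34 in vehicle, and from 9.97 to 11.03 with a median of 10.89 at 970 mg/kg. The ranges overlapped, and 5 of the 6 samples at 970 mg/kg lay at 10.78 or above while replicate 1 was the lowest of both groups. The change was 0.27 (95% interval -0.17 to 0.72, limma adjusted p = 0.968). Without that replicate it was 0.43 (limma adjusted p = 0.998), and the call did not change.

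Cyp3a23-3a1, the steroid and drug hydroxylase whose repeat is shown above, had the smallest unadjusted p of the members with a value above 0 at 970 mg/kg. Its signal was 12.43 to 12.98 with a median of 12.60 in vehicle, 12.58 to 12.98 with a median of 12.86 at 97.1 mg/kg, and 12.65 to 13.19 with a median of 12.84 at 970 mg/kg. The groups overlapped at both doses. The change was 0.20 (95% interval 0.02 to 0.39) at 970 mg/kg and 0.19 (0.01 to 0.38) at 97.1 mg/kg, a fold of 1.15 and 1.14, and neither passed the adjustment (limma adjusted p = 0.966 and 0.908). Its slope was 0.04 log2 units per dose step (unadjusted p = 0.00971, limma adjusted p = 0.863).

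Cyp3a2, a male-predominant testosterone hydroxylase with the same repeat, spanned 13.63 to 13.82 in vehicle (median 13.77) and 13.59 to 13.86 at 970 mg/kg (median 13.80), a change of 0.03 (95% interval -0.06 to 0.11). Cyp3a18, also male-predominant, changed by 0.03 (-0.12 to 0.19). Cyp3a9, a female-predominant form, spanned 7.26 to 8.35 in vehicle (median 7.62) and 7.43 to 8.45 at 970 mg/kg (median 7.87). Its mean lay above that of vehicle at every dose, by 0.60 at 0.1, 0.45 at 0.97, 0.37 at 9.71, 0.50 at 97.1 and 0.16 at 970 mg/kg, in no order of dose, and none passed the limma test (adjusted p = 0.999, 0.985, 0.978, 0.971 and 0.979). The 5 comparisons share the vehicle samples.

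**Figure D2:**
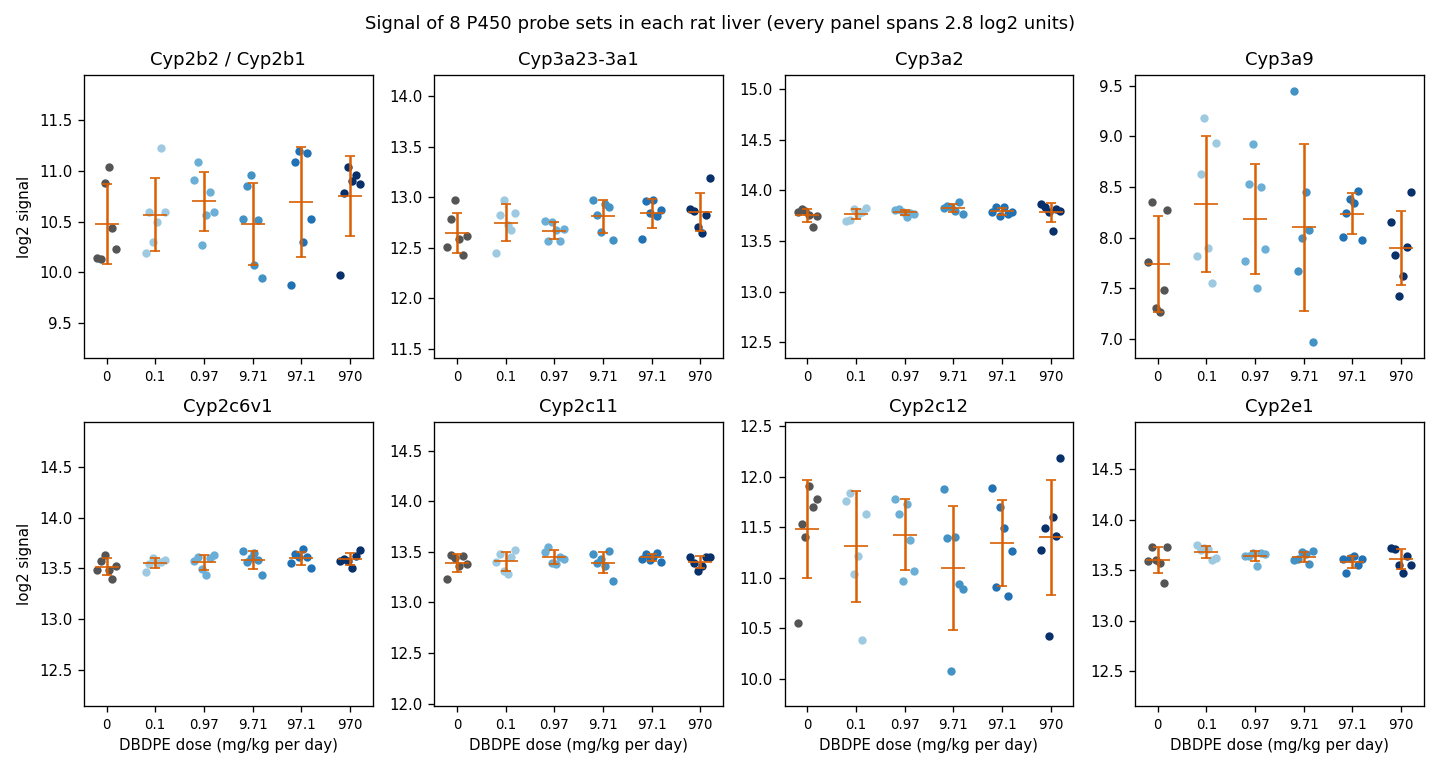
Log2 signal of 8 P450 probe sets in each of the 36 livers (points) by daily DBDPE dose, with the mean and SD of each group in orange and every panel spanning the same height. The groups overlap in each panel, and Cyp3a9 and Cyp2c12 are more widely spread than Cyp3a2, Cyp2c11 and Cyp2e1.

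Of the constitutive Cyp2c enzymes, which metabolise many drugs and arachidonic acid, 5 of 7 had a value above 0 at 970 mg/kg (median 0.02). Cyp2c11, the main testosterone hydroxylase of male rat liver, spanned 13.24 to 13.47 in vehicle (median 13.41) and 13.32 to 13.45 at 970 mg/kg (median 13.42), and differed by 0.01 (95% interval -0.09 to 0.11). Cyp2c6v1 spanned 13.40 to 13.63 in vehicle (median 13.51) and 13.50 to 13.68 at 970 mg/kg (median 13.59), and differed by 0.07 (-0.02 to 0.17, limma adjusted p = 0.966). Of the other constitutive forms, Cyp2c7 differed by 0.07 (-0.15 to 0.29), Cyp2c22 by 0.09 (-0.08 to 0.25), Cyp2c13 by -0.02 (-0.10 to 0.05) and Cyp2c23, an arachidonic acid epoxygenase, by 0.02 (-0.12 to 0.17). Cyp2c23 was the 1 member with an unadjusted p under 0.05 at 9.71 mg/kg (0.15, limma adjusted p = 0.978). Cyp2c12, the female steroid sulfate hydroxylase, spanned 10.56 to 11.91 in vehicle (median 11.62) and 10.43 to 12.19 at 970 mg/kg (median 11.45), with a change of -0.08 (-0.64 to 0.47).

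By sex dependence, 3 of the 5 male-predominant probe sets had a value above 0 at 970 mg/kg (median 0.01), as did 3 of the 4 female-predominant ones (median 0.05). Of the Cyp2a steroid hydroxylases, Cyp2a1 differed by 0.03 (-0.17 to 0.22) and Cyp2a2 by -0.01 (-0.11 to 0.10) at 970 mg/kg. At 97.1 mg/kg Cyp2a2 was among the 3 members of smallest p below vehicle, at -0.08 (-0.19 to 0.02), with Cyp2j10 at -0.08 and the dim Cyp2a3 at -0.05.

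Cyp2e1, the ethanol- and solvent-oxidising enzyme, spanned 13.37 to 13.73 in vehicle (median 13.60) and 13.47 to 13.72 at 970 mg/kg (median 13.60), with a difference of 0.01 (95% interval -0.10 to 0.11). The Cyp2d drug oxidases had 2 of 5 values above 0 at 970 mg/kg. Cyp2d2, among the 3 members of smallest p below vehicle, differed by -0.05 (-0.12 to 0.02), Cyp2d3 by 0.01 (-0.09 to 0.10) and Cyp2d5/Cyp2d1 by -0.01 (-0.11 to 0.10). The probe sets of Cyp2d4 gave -0.09 and 0.25 and did not track each other (r = 0.13, rho = 0.15, permutation p = 0.514 and 0.397 over 36 samples, unchanged by adjustment over 4 such pairs, and r = -0.01 without the 2 farthest samples). Cyp2j3, a fatty acid epoxygenase, and Cyp2j4 differed by -0.07 (-0.20 to 0.06) and 0.05 (-0.11 to 0.21).

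Cyp2u1, a fatty acid hydroxylase, had the smallest p of the members below vehicle. It spanned 6.19 to 6.58 in vehicle (median 6.34) and 6.00 to 6.44 at 970 mg/kg (median 6.15), so that the groups overlapped. The difference was -0.19 (95% interval -0.37 to -0.02, limma adjusted p = 0.966). Cyp2f4 spanned 9.15 to 9.34 in vehicle (median 9.29) and 8.99 to 9.29 at 970 mg/kg (median 9.22), a difference of -0.09 (-0.22 to 0.03, limma adjusted p = 0.966), and its slope per dose step was -0.03 (limma adjusted p = 0.863). Cyp2b21, below the median of every array, differed by 0.21 at 97.1 mg/kg (0.01 to 0.42, limma adjusted p = 0.906) and by 0.04 at 970 mg/kg. Cyp2b3 differed by -0.04 (-0.10 to 0.03), Cyp2t1 by 0.12 (-0.12 to 0.37), Cyp2g1 by -0.06 and Cyp2s1 by -0.07 at 970 mg/kg.

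The partners and regulators of the pathway were read in the same fit, and 0 of 12 regulators and 0 of 4 redox partners passed the test at 970 mg/kg. Nr1i3, which encodes CAR, differed by 0.35 (95% interval -0.04 to 0.75, limma adjusted p = 0.966) and Nr1i2, which encodes PXR, by -0.09 (-0.24 to 0.05). The widest regulator differences were those of Bcl6, a repressor of sex-dependent genes, at -1.64 (-3.07 to -0.20), and Onecut1, a liver transcription factor, at 1.22 (-0.35 to 2.79), both with a limma adjusted p of 0.966. At an unadjusted p under 0.05, 2 of 12 regulators passed (16.7%, against 4.87% of all probe sets), both below vehicle, and the interval stayed within 2-fold for 8 of the 12. The count was 2 at 97.1 mg/kg (16.7% against 5.42%) and 4 at 9.71 mg/kg (33.3% against 5.06%). It was 0 at 0.97 mg/kg (against 4.92%) and 1 at 0.1 mg/kg (8.33% against 4.46%). Bcl6 differed by -1.98 at 97.1 mg/kg and by -2.75 at 9.71 mg/kg, in no order of dose. All these comparisons share the vehicle samples. Por differed by -0.09 (-0.42 to 0.24). Cyb5a, cytochrome b5, which can pass electrons to P450 enzymes, averaged 13.35 ± 0.05 in the vehicle livers and 13.52 ± 0.06 (SD, n = 6 each) at the top dose, and all 6 samples at 970 mg/kg lay above all 6 vehicle samples. Such separation above vehicle was found for 36 of all 31042 probe sets (0.116%). The Cyb5a difference of 0.17 (0.10 to 0.24) ranked 4th by p of all probe sets and did not pass the adjustment (limma adjusted p = 0.327). Of 21 CAR and PXR targets outside the P450 families, 16 were measured, 12 had a value above 0 at 970 mg/kg (median 0.05), and 0 rose or fell. At an unadjusted p under 0.05, 2 of the 16 passed (12.5% against 4.87%), both above vehicle: the transporter Abcc4 at 0.27 and the glutathione transferase Gsta3 at 0.58 (limma adjusted p = 0.966 for both). For Abcc4 all 6 samples at 970 mg/kg, from 5.691, lay above all 6 vehicle samples, which reached 5.690. Abcc4 was the 1 of the 16 targets so separated, against the same 0.116% of all probe sets.

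Rats of the same group differed more in some members than in others. The pooled SD within dose groups had a median of 0.135 over the members and 0.137 over all probe sets, and 5 of 34 members lay in the top 10% of all. Spread changes with signal on these arrays, so members were also set against probe sets of similar mean signal. The median SD was 0.116 in the dimmest bin of signal, 0.153 at a mean signal of 4.29 and 0.062 in the brightest bin. With 20 equal bins of signal, 6 of 34 members lay above the 90th percentile of their bin and 11 below its median. With the top bin split further, a choice made after those counts had been seen because many members crowd that bin, the counts were 8 and 7.

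The largest spread was that of Cyp3a9, with an SD of 0.55 and signals from 6.97 to 9.45, a 5.57-fold range, whose extremes both fell in the 9.71 mg/kg group. Cyp2c12 followed with an SD of 0.51 and signals from 10.08 to 12.19, a 4.30-fold range. The second probe set of Cyp2d4 had an SD of 0.41 (2.77-fold range), Cyp2b2/Cyp2b1 an SD of 0.41 (2.54-fold range) and Cyp2t1 an SD of 0.22 (1.83-fold range). Cyp3a2, by contrast, had an SD of 0.06 and a 1.23-fold range, and Cyp2c13 an SD of 0.05 and a 1.13-fold range. Both lie in the brightest bin of signal, where the 10th percentile of the SD was 0.035 and the median 0.062, so such values are usual there.

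**Figure D3:**
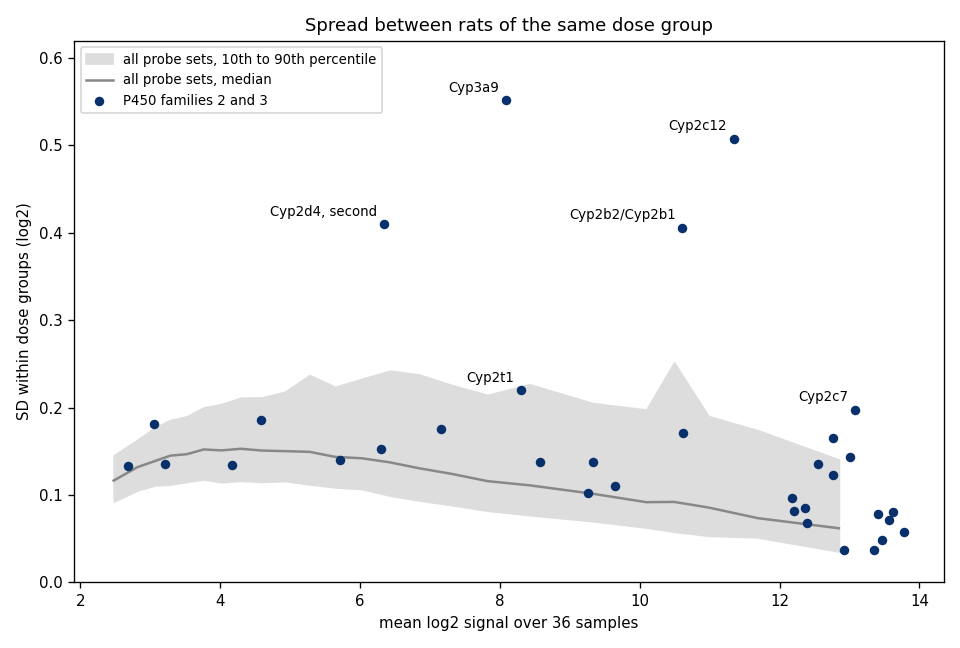
Pooled SD within dose groups of each member (blue points) against its mean log2 signal over 36 samples, with the median (line) and the 10th to 90th percentile (band) of all probe sets in bins of mean signal, the topmost being narrower. Cyp3a9, Cyp2c12, Cyp2b2/Cyp2b1 and the second Cyp2d4 probe set lie far above the band, at 0.41 to 0.55.

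Whether members vary together between rats was examined after subtracting each dose group's mean, so that dose does not enter. For 12 chosen pairs of members, regulators and marker genes, 0 passed after adjustment over the 12 (permutation within dose groups, two-sided, n = 36). The lowest p by r was that of Cyp3a23-3a1 with Nr1i2 (r = -0.47, rho = -0.46, permutation p = 0.00968 and 0.00945, adjusted 0.116 and 0.0567), and r was -0.33 without the 2 farthest samples. Cyp2b2/Cyp2b1 with Dbp had the lowest p by rho, with r = -0.43 and rho = -0.51 (permutation p = 0.0248 and 0.00636, adjusted 0.149 and 0.0567), and -0.44 without the 2 farthest samples. Cyp2b2/Cyp2b1 and Cyp3a23-3a1, which share the receptors named above, gave r = 0.10 and rho = -0.03 (permutation p = 0.576 and 0.89, adjusted 0.629 and 0.89), and r was 0.01 without the 2 farthest samples.

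All 496 pairs of 32 members, 1 probe set for each gene or gene pair, were then computed, a step added after the first results were seen. Of these, 17 passed after adjustment over the 496 (permutation, threshold 0.05), 15 with positive and 2 with negative r, and 14 also by rho. The median r over all pairs was 0.09. Pairs of 1 subfamily made up 6 of the 17 and 48 of the 496, and pairs on 1 chromosome 9 of the 17 and 205 of the 496. Probe sets that name the same gene (Cyp2a2/Cyp2a1 with Cyp2a1 and with Cyp2a2) are among them and are not separate genes.

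Cyp3a23-3a1 varied with Cyp2c6v1 (r = 0.67, rho = 0.62, permutation p = 4e-05 and 0.00028, adjusted 0.00661 and 0.0198) and with Cyp3a18 (r = 0.66, rho = 0.67, permutation p = 0.0002 and 0.00012, adjusted 0.0124 and 0.0149). Without the 2 farthest samples r was 0.68 and 0.57, and r was above 0 in 5 and in 6 of the 6 dose groups. Cyp2c13 varied with Cyp3a2 (r = 0.61, rho = 0.58, permutation p = 0.00014 and 0.00045, adjusted 0.0124 and 0.0223), and r was 0.53 without the 2 farthest samples. Cyp2a1 varied with Cyp2c7, both female-predominant (r = 0.62, rho = 0.67, permutation p = 4e-05 for both, adjusted 0.00661 for both), and r was 0.54 without the 2 farthest.

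The 2 negative pairs joined Cyp2c12 with Cyp2c7 (r = -0.57, rho = -0.58, permutation p = 0.00056 and 0.00109, adjusted 0.0228 and 0.0386) and Cyp2a1 with Cyp2b2/Cyp2b1 (r = -0.59, rho = -0.62, permutation p = 0.00066 and 0.00038, adjusted 0.0228 and 0.0209). Without the 2 farthest samples they were -0.67 and -0.57. For Cyp2c12 with Cyp2c7, both of the female-predominant list, r lay below 0 in each of the 6 dose groups. Some of these calls ended when a measure of each array was removed by regression. The hepatocyte marker mean is no count of hepatocytes, since its genes varied unequally. At 970 mg/kg the SD was 0.84 for Tat and 0.01 for Alb (n = 6). With the hepatocyte marker mean of each array removed, 10 of the 17 pairs passed, 7 did not, and 3 others came in. The 7 were Cyp2a1 with Cyp2c7, with Cyp2a2 and with Cyp2b2/Cyp2b1, Cyp2a2/Cyp2a1 with Cyp2c7, Cyp2c13 with Cyp3a2, Cyp2e1 with Cyp2j4, and Cyp2c11 with Cyp2d4. Of the pairs described above, r then was 0.53 for Cyp2a1 with Cyp2c7 (adjusted permutation p = 0.0638), 0.48 for Cyp2c13 with Cyp3a2 (0.091) and -0.52 for Cyp2a1 with Cyp2b2/Cyp2b1 (0.0676). Cyp3a23-3a1 with Cyp2c6v1 and with Cyp3a18, and Cyp2c12 with Cyp2c7, passed with r of 0.67, 0.66 and -0.56. With the beta-actin difference removed, 13 of the 17 passed, and the 4 that did not were Cyp2c6v1 with Cyp3a2 and with Cyp2d4, Cyp2c11 with Cyp2d4, and Cyp2a1 with Cyp2a2. The smallest absolute r among the 17 was 0.452 after the first removal and 0.473 after the second.

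**Figure D4:**
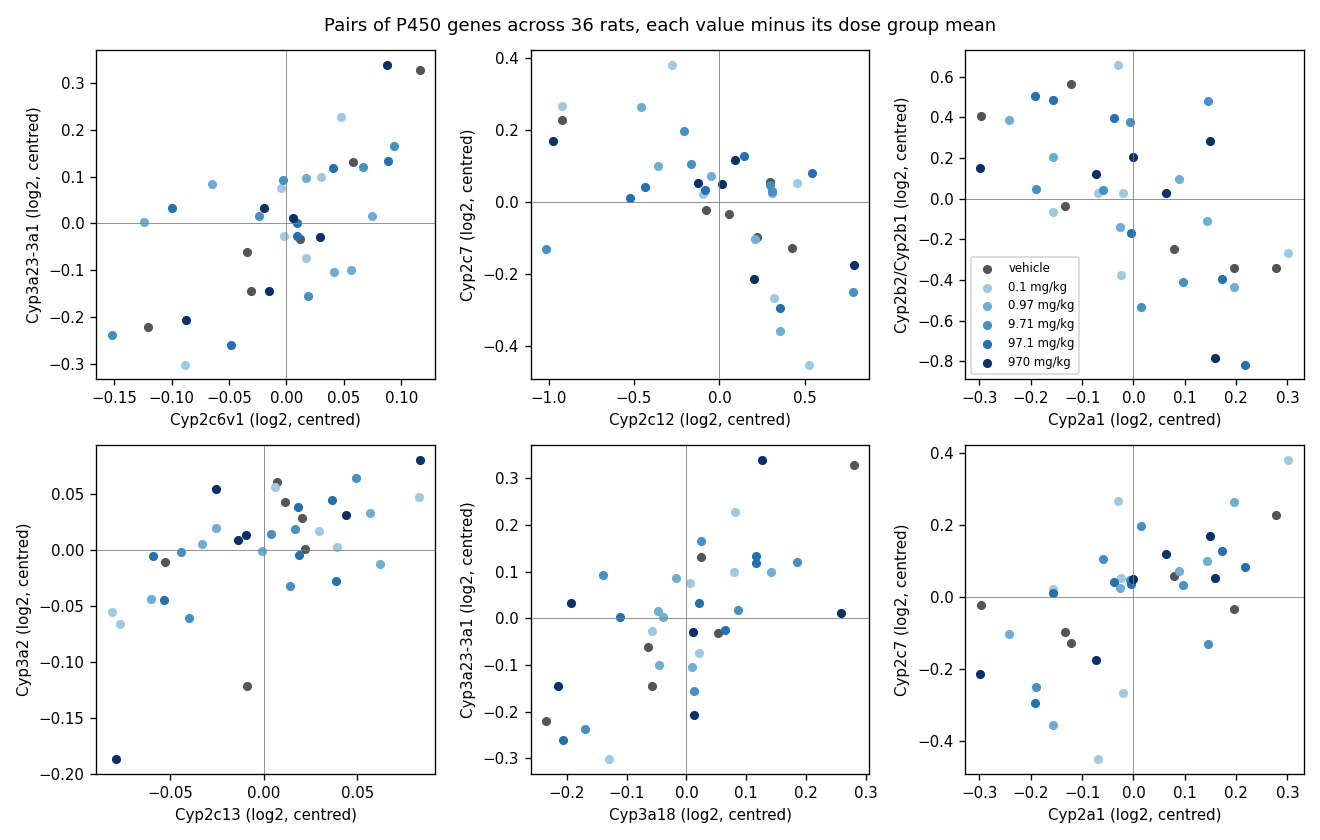
Each panel plots a pair of P450 probe sets over 36 livers, every value minus its dose group mean (log2), coloured by dose. Cyp3a23-3a1 follows Cyp2c6v1 (r = 0.67), whereas Cyp2c12 runs against Cyp2c7 (r = -0.57).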

How the data were processed

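Hepatic RNA of 36 samples was measured on Affymetrix 3′ arrays. The authors deposited 1 log2 signal for each probe set and array, made with RMA and affy (versions not stated), per the submitters' processing notes. The aligned build of the probes is not given in the sources used here. The table holds 31099 probe sets, and 57 controls were left out. Symbols come from the platform annotation, and promoters from the RefSeq table for GRCr8. Precision is limited by the 6 arrays per group.

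Each dose was compared with vehicle in limma 3.58.1 (R 4.3.3, lmFit and eBayes over all 36 arrays, two-sided), with Benjamini-Hochberg adjustment over 31042 probe sets and a threshold of 0.05. The series names R/maanova, in whose place limma was used. An F test covered the 5 doses, and a slope the dose steps 0 to 5. Dim probe sets were kept. The fit was tested on simulated data. Correlations used 100000 permutations within dose groups (numpy 2.4.6). Samples of different groups with the same number had residuals that correlated little (mean r 0.0048, 90 pairs), so the numbers were not used as pairs.

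Members, lists and pairs were chosen with earlier results of these data known. Named members are those past the threshold, the 3 of smallest p in each direction at each of the top 2 doses, the 5 of largest spread, and a fixed panel of hepatic P450 genes. Of that panel, Cyp3a62, Cyp2r1 and Cyp2w1 were not analysed here.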

Additional observations from a re-analysis of the deposited data

Results flagged for a closer look

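Within each dose group, 192 sets of 6 samples (32 probe sets in 6 groups) were searched for a sample far from the other 5, by Dixon's test at its 95% critical value. The search found 14, and chance gives about 1 in 20 sets. The values are log2 signals. Cyp2a1 was highest in 0.1 mg/kg replicate 3, at 10.93, with the other 5 samples at 10.47 to 10.61. Cyp2a3 was highest in 0.97 mg/kg replicate 3, at 3.45, with the other 5 samples at 3.149 to 3.21. Cyp2b12 was highest in 97.1 mg/kg replicate 1, at 2.935, with the other 5 samples at 2.499 to 2.612. Cyp2b2/Cyp2b1 was lowest in 970 mg/kg replicate 1, at 9.969, with the other 5 samples at 10.78 to 11.03. Cyp2b3 was highest in 0.1 mg/kg replicate 1, at 13.04, with the other 5 samples at 12.91 to 12.94. Cyp2c12 was lowest in vehicle replicate 1, at 10.56, with the other 5 samples at 11.4 to 11.91. Cyp2c7 was lowest in 97.1 mg/kg replicate 3, at 12.73, with the other 5 samples at 13.03 to 13.15.

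Cyp2d2 was highest in 0.1 mg/kg replicate 2, at 13.41, with the other 5 samples at 13.35 to 13.36. Cyp2e1 was lowest in 0.97 mg/kg replicate 4, at 13.54, with the other 5 samples at 13.64 to 13.67. Cyp2f4 was lowest in 97.1 mg/kg replicate 4, at 8.943, with the other 5 samples at 9.231 to 9.39. Cyp2g1 was lowest in 970 mg/kg replicate 4, at 3.847, with the other 5 samples at 4.103 to 4.19. Cyp2j4 was highest in 9.71 mg/kg replicate 4, at 9.607, with the other 5 samples at 9.173 to 9.32. Cyp3a18 was highest in 0.97 mg/kg replicate 1, at 12.7, with the other 5 samples at 12.51 to 12.56. Cyp3a2 was lowest in 970 mg/kg replicate 4, at 13.59, with the other 5 samples at 13.79 to 13.86. In 970 mg/kg replicate 4, Cyp2g1 and Cyp3a2 were both the lowest of their group. No cause of these values was tested.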

How the results depend on the processing

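No member passed the threshold under any alternative run: other scaling (array centring, cyclic loess), array weights, other variance models, a filter on dim probe sets, single-gene probe sets only, the 12 samples alone, thresholds of 0.01 and 0.1, adjustment over the 5 doses, dose in mg/kg, doses without vehicle for the slope, and each sample left out in turn gave 0. The count stayed at 0 for all 7 comparisons. The fold changes of the members of smallest p kept their sign in all settings. Cyp3a23-3a1 at 970 mg/kg ranged from 0.137 to 0.270 (limma adjusted p 0.745 to 0.999), and Cyp2b2/Cyp2b1 from 0.206 to 0.432 (0.929 to 0.999). With the replicate number as a block, 0 members passed and Cyp2b2/Cyp2b1 changed by 0.275; the numbers share no known source, and single pairs of same-numbered samples correlated at -0.25 to 0.26, 15 of 90 over 0.1. Without centring on dose groups, 2 of the 12 listed pairs passed, Cyp3a23-3a1 with Nr1i2 (-0.468) and Cyp2b2/Cyp2b1 with Dbp (-0.461), each with an adjusted permutation p of 0.0273 over 36 samples. The sign turned for 3 weak pairs of Cyp2b2/Cyp2b1: with Cyp3a23-3a1 by rho (-0.026), with Nr1i3 without the 2 farthest samples (-0.0319), and with Cyp1a1 by rho (0.0888), without the 2 farthest (0.112) and without centring (0.184). The count of 17 passing pairs was 16 by rho, 13 with the beta-actin difference removed (all among the 17), 13 with the hepatocyte mean removed (10 among the 17), and 14 with arrays centred (all among the 17), alternatives added after the data were seen. The number of arrays limits the precision.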
